A study of Schizosaccharomyces pombe with 4 samples.

Results

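The small (40S) subunit of the cytosolic ribosome of fission yeast (Schizosaccharomyces pombe) is built from ribosomal RNA and a set of proteins encoded by the rps genes, and the association of the RNA helicase Upf1 with these genes is described here. The members were all listed genes whose RefSeq symbol is rps followed by digits and which lie in the nucleus, 55 of the 4888 genes in the table. The mitochondrial rps3 gene, the only other symbol of this form, was left out. All 55 members have a Upf1 value in both cultures, and no filter on low values was applied.

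The 40S subunit binds mRNA and reads its codons, and its proteins are divided between a head and a body with a platform. The rps genes are among the most heavily transcribed genes of growing yeast cells, and most of the proteins are encoded by more than 1 gene. Upf1 is best known for its part in nonsense-mediated mRNA decay, which removes mRNAs with premature stop codons, and it also binds nuclear, newly made transcripts.

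Upf1 was measured by chromatin immunoprecipitation followed by hybridisation to tiling arrays (ChIP-chip). The strains carried upf1-3HA::kanMX6, in which Upf1 ends in an HA epitope tag, and cells were grown in YES medium. One immunoprecipitated (IP) array came from an asynchronous culture with no treatment, and the other came from an S-phase culture of a cdc25-22 strain, a mutation that stops cells before mitosis at high temperature. Arrest lasted 3.5 h at 37 °C, and the cells were fixed 60 min after their return to 25 °C. The study's strain list gives the tag in a cdc25-22 strain with mutations in ade6, leu1 and ura4, and in a flag-rpb3 strain, and the labels do not say which of these was used for the asynchronous culture. Strain, arrest, release and culture therefore cannot be told apart from S phase itself. The titles of the IP arrays also end in different numbers that read as dates, so time of preparation cannot be told apart either. The 2 input arrays, both untreated, served as the denominator for both cultures. Per the methods, a pair of IP arrays was made for each culture and the one of better quality was used, so each culture has 1 value per gene and no replicate error. No test between cultures or genes was possible and no p-values are given. The Ser5 Pol II column (RNA polymerase II phosphorylated on serine 5, found on transcribed genes) and the RNA column are the authors' values from published work on other cultures, and neither has an S-phase value.

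The IP arrays were not scaled to the inputs, and the median ratio of IP over input was 0.774 in asynchronous cells and 0.195 in S phase. Unless stated, Upf1 and Pol II values below were therefore centred, as log2 ratios over the median gene of the same column, and a gene is called enriched when it lies at least 1.5-fold above that median. The spread of the difference between cultures over all genes was 0.35 (SD), or 0.24 when divided between both arrays, and real differences between the cultures are part of this array spread. Values that lie closer together than 0.35 are not ordered by these arrays.

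As a family, the 40S genes lay above the median gene for Upf1 in both cultures. The asynchronous median was 0.49, which is 1.40-fold, with a range from 0.042 at rps2201 to 1.25 at rps1802 and an SD across members of 0.19. The S-phase median was 0.67, which is 1.59-fold, with a range from −0.0040 at rps2201 to 1.47 at rps13 and an SD of 0.28. Above the median gene in both cultures lay 54 of the 55 members, and the exception was rps2201, in S phase alone.

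In asynchronous cells 17 members (30.9%) were enriched, against 5.14 percent of all listed genes. In S phase 35 members (63.6%) were enriched, against 11.2 percent of all listed genes. Enrichment in both cultures was found for 13 members, in asynchronous cells alone for 4, in S phase alone for 22, and in neither for 16. The threshold cut through a dense part of the distribution. In asynchronous cells rps20 lay just inside it at 0.588 and rps27 just outside at 0.582, and in S phase rps1601 lay just inside at 0.585 and rps602 just outside at 0.580. Base composition differed between the members and the table. The members had a median GC content of 42.8% against 36.8% over all genes. After a running median over GC content was subtracted, the enriched members numbered 6 and 10 and the family medians were 0.25 and 0.18. The share of all genes enriched after this subtraction is not given, so these counts cannot be set against the table. Across all genes the GC content of a gene followed its Upf1 ratio, with a Spearman's rho of 0.545 and 0.499, whereas within the family rho was 0.0014 and −0.047 (n = 55 genes on the same arrays). The 373 genes outside the ribosomal protein lists with a GC content between the members' quartiles had Upf1 medians of 0.25 and 0.37, against 0.47 and 0.64 for the 27 members of that range. Their Pol II medians also differed, 0.40 against 1.48, and the part of base composition in the family's level was not tested further.

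**Figure D1:**
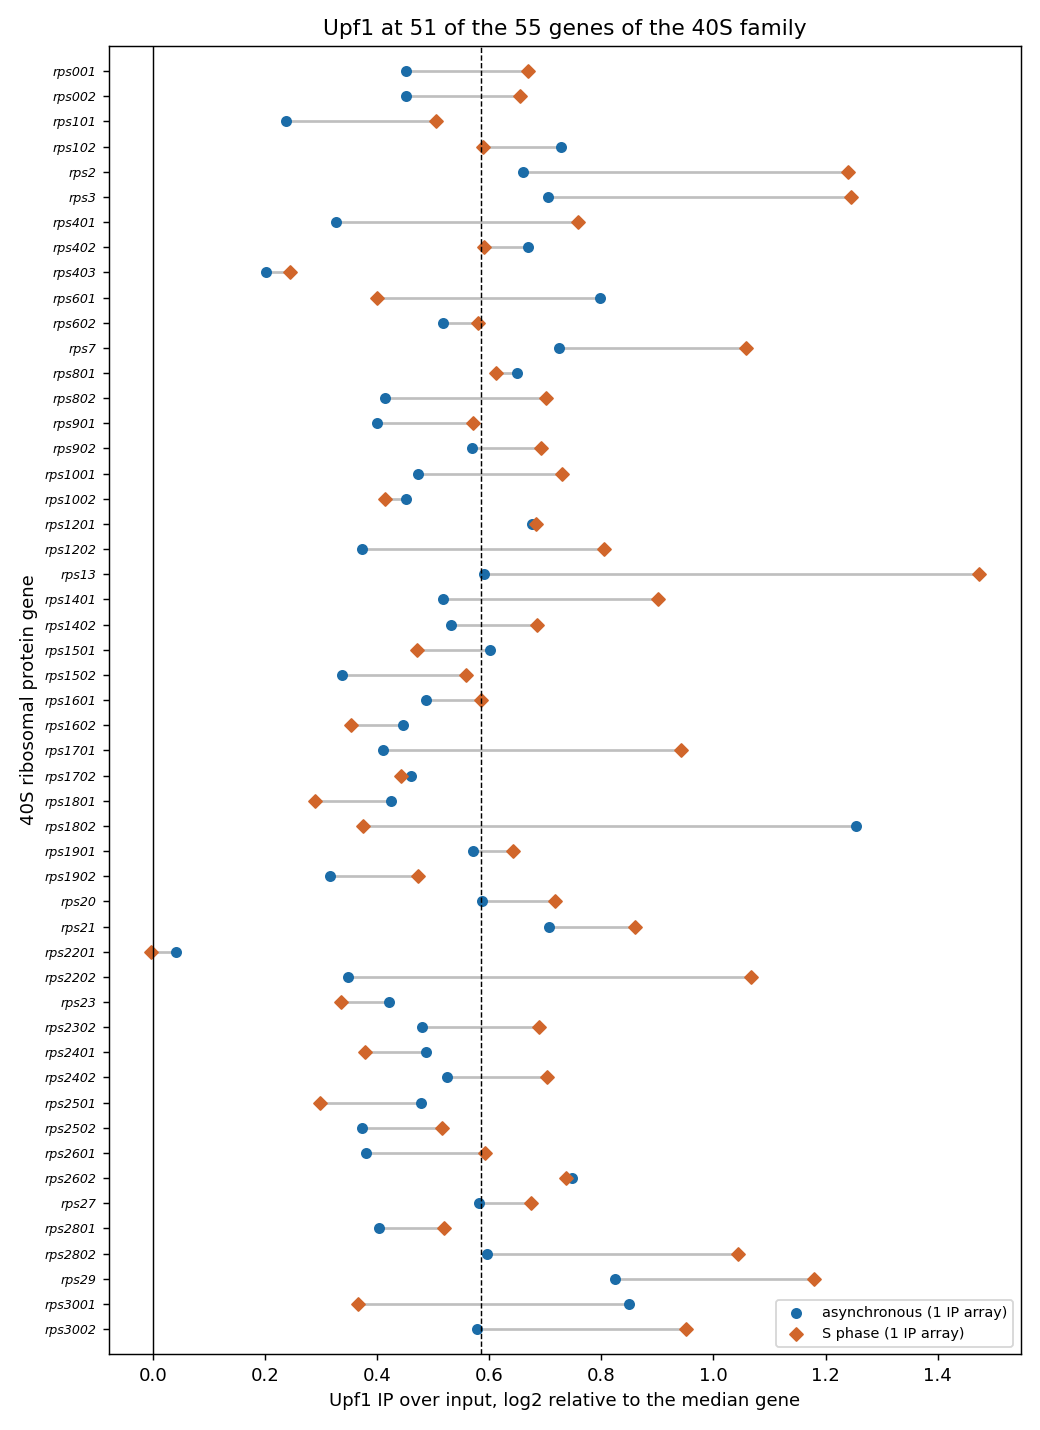
Upf1 IP over input at 51 of the 55 members, as log2 relative to the median gene, for the asynchronous culture (circles) and S phase (diamonds), with 1 IP array each and a grey line joining both values of a gene. The solid line marks the median gene and the dashed line 1.5-fold; all values plotted but that of rps2201 in S phase lie to the right of the solid line.

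The highest member in asynchronous cells was rps1802, 1 of 2 genes for Rps18, a protein of the subunit head. Its deposited ratio was 1.85 in asynchronous cells and 0.253 in S phase, or 1.25 and 0.37 after centring. The next highest were rps3001 (0.85), rps29 (0.82), rps601 (0.80) and rps2602 (0.75). Rps29 is a small zinc-binding protein of the head, Rps6 is a phosphorylated protein at the foot of the body, and Rps26 lies near the site where mRNA leaves the subunit. The values after rps1802 fall within the spread of a difference, 0.35, of each other. At the low end were rps2201 (0.042), rps403 (0.20), rps101 (0.24), rps1902 (0.32) and rps401 (0.33), which also lay within that spread of each other.

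In S phase the order was different. The highest members were rps13 (1.47), rps3 (1.25), rps2 (1.24), rps29 (1.18) and rps2202 (1.07). Rps2 and Rps3 line the channel through which mRNA enters the subunit, and Rps13 is a body protein. By these values rps29 was among the 5 highest in both cultures, although the members at the edge of each 5 differ by less than 0.35. The lowest in S phase were rps2201 (−0.0040), rps403 (0.25), rps1801 (0.29), rps2501 (0.30) and rps23 (0.34), of which Rps23 is a protein of the decoding centre. rps2201 and rps403 were among the 5 lowest in both cultures. Across the 55 members the asynchronous and S-phase values followed each other with a rho of 0.266, whereas over all listed genes rho was 0.694. Over 84 genes listed for the large (60S) subunit it was 0.596. The same inputs are the denominator of both columns, and shared inputs alone give some likeness.

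The change between cultures was small for most members, as it was for most listed genes. The log2 of the S-phase ratio over the asynchronous ratio, centred on all genes, had a median of 0.15 and an SD of 0.29 in the family. Within the SD of 0.35 over all genes lay 40 members. Over all listed genes the quartiles of the change were −0.19 and 0.19, so most of the table also lay within 0.35. The change was above 0 for 38 members and below 0 for 17. Only rps13 (0.87) and rps2202 (0.71) were at least 1.5-fold higher in S phase, or 3.64% of members against 3.78 percent of all genes. Only rps1802 (−0.89) was at least 1.5-fold lower, or 1.82% of members against 4.03 percent of all genes. Neither share lay above that of the whole table. Next to these were rps2 (0.57) and rps3 (0.53) among the higher members, and rps3001 (−0.49), rps601 (−0.41) and rps2501 (−0.19) among the lower. The S-phase ratios were wider than the asynchronous ratios over all genes, with an SD of 0.48 against 0.34. When they were scaled to the same spread, the family median of the change became −0.030, no member was at least 1.5-fold higher, and 2 were at least 1.5-fold lower. The direction of the family's small shift thus turned with the scaling. On that scale rps1802 was at −0.99.

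Short genes are covered by few probes, and 41 of the 55 members were among the shortest 10% of listed genes, with a median length of 669 bp against 1803.5 bp over all genes. Among these short members the SD of the change between cultures was 0.29, against 0.53 for the 443 other genes of that length class. The 14 longer members had an SD of 0.29, against 0.32 for other longer genes. All 3 members that changed at least 1.5-fold were among the short ones. They were 7.32% of the 41 short members, against 18.5% of the 443 other genes of that length class.

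The Ser5 Pol II ratio was high throughout the family. The authors' pooled values had a median of 1.47 over the members, which is 2.77-fold above the median gene, from 0.77 at rps2201 to 2.28 at rps2202. All 55 members were at least 1.5-fold above the median gene, against 16 percent of all genes, and 54 were among the top 10% of genes. For Upf1 the corresponding numbers were 37 in asynchronous cells and 30 in S phase. Within the top 1% of genes there were 8 members for Pol II but 1 for Upf1 in each culture, rps1802 in asynchronous cells and rps13 in S phase. The Pol II ratio of every member was above that of the median gene.

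Upf1 was set against genes of the same Pol II ratio by subtracting a running median over the genes nearest in Pol II. In asynchronous cells the members' median was −0.0085, with 28 members below the trend and 27 above. In S phase the median was −0.12, with 39 members below and 16 above. Single members lay further from the trend than the array spread of 0.24 in 7 cases in asynchronous cells and in 21 in S phase. The share of all listed genes beyond 0.24 is not given. Their SD about the trend was 0.28 in asynchronous cells and 0.38 in S phase, wider than the members' 0.18 and 0.25. The members and the 60S genes are part of this running median. Taken over genes outside both lists, an alternative added after seeing the data, it left medians of 0.068 and −0.16, with 17 members below and 38 above in asynchronous cells and 42 below and 13 above in S phase. With a straight line in place of the running median the medians were 0.072 and 0.053, so that the S-phase shift changed sign with the form of the trend. Furthest above the trend in asynchronous cells were rps1802 (0.70), rps29 (0.40), rps402 (0.31) and rps3001 (0.27), and furthest below were rps101 (−0.34), rps403 (−0.25), rps401 (−0.23) and rps2202 (−0.23). In S phase the furthest above were rps13 (0.64), rps29 (0.47), rps2 (0.46) and rps3 (0.41), and the furthest below were rps1801 (−0.48), rps403 (−0.48), rps3001 (−0.48) and rps2201 (−0.45). rps3001 was therefore above the trend in one culture and below it in the other, with a single array behind each value.

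The 98 genes outside both ribosomal protein lists with a Pol II ratio between the members' quartiles, 1.24 to 1.70, had Upf1 medians of 0.54 in asynchronous cells and 0.96 in S phase. The 27 members in that range had 0.48 and 0.64. The other genes had a lower GC content (39.7% against 43.8%) and were longer (1651 bp against 610 bp). When these genes were limited to those with a GC content between the members' quartiles as well, 28 were left, with medians of 0.61 and 0.97. In both cultures the members' median was the lower one, no error can be given for these differences, and the part of gene length in them was not tested.

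**Figure D2:**
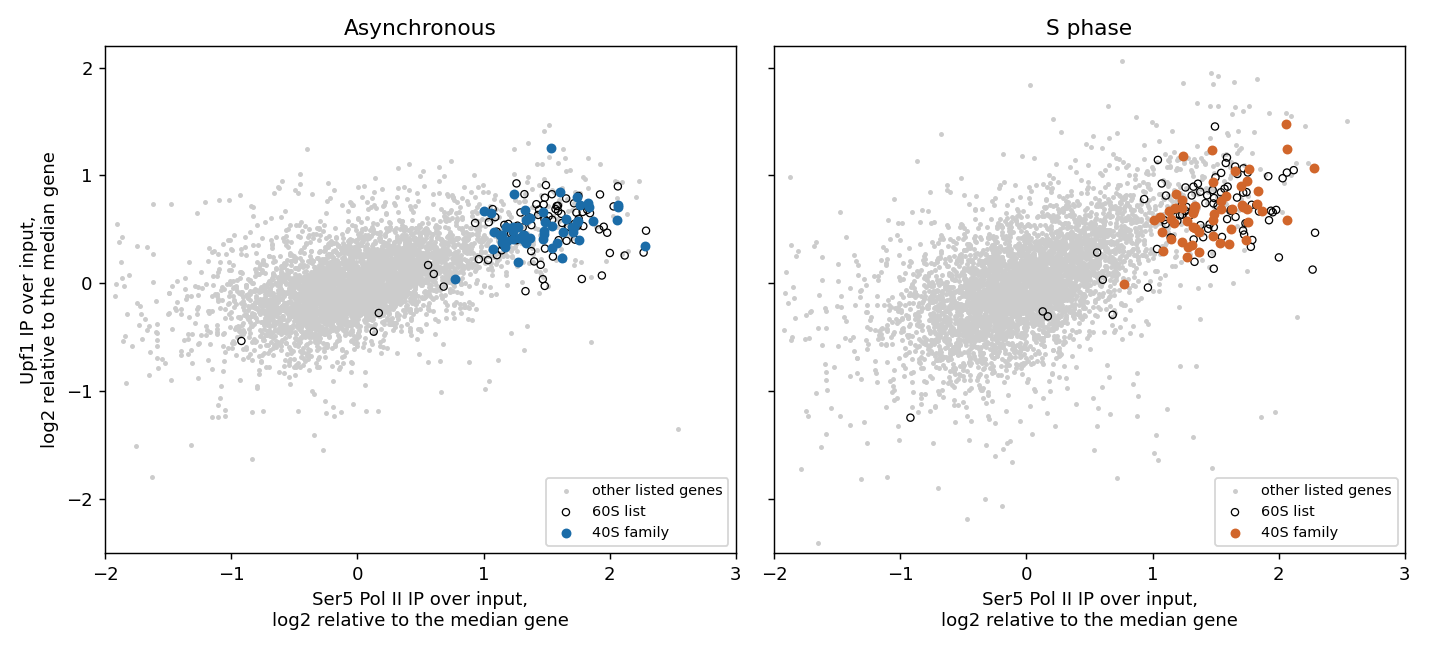
Upf1 IP over input against Ser5 Pol II IP over input for each gene, both as log2 relative to the median gene, in asynchronous cells (left) and S phase (right). The 40S family (filled) and the 60S list (open circles) lie mostly at the right of the cloud of other genes (grey), where 402 of these share the members' Pol II range; 19 genes outside the plotted Pol II range of −2 to 3 are not shown.

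Among the members themselves Upf1 followed Pol II less closely than over all genes. Spearman's rho was 0.365 in asynchronous cells and 0.435 in S phase (n = 55), against 0.559 and 0.579 over all listed genes. In the 60S list rho was lower still, at 0.279 and 0.273 (n = 84). Pearson's r was 0.549 and 0.601 in that list, against 0.336 and 0.531 in the 40S family. The order of these lists thus turned with the coefficient. The family covers a narrow part of the Pol II range, and its genes share arrays and inputs. Among the 14 members outside the shortest 10% of genes rho was −0.029 in S phase and 0.358 in asynchronous cells. For the 31 members with an intron rho was 0.348 and 0.497, and for the 24 without it was 0.404 and 0.331.

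RNA level was high in every member and followed Upf1 only weakly. On the deposited scale, the natural log of FPKM + 1, the family median was 6.88 against 3.74 over all genes, and all 55 members were among the top 10%. The lowest was rps1701 at 5.53 and the highest rps29 at 8.94. Within the family rho between RNA and Upf1 was 0.221 in asynchronous cells and 0.168 in S phase, against 0.377 and 0.417 over all genes. RNA and Pol II ratio had a rho of 0.109 within the family and 0.586 over all genes.

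The 55 genes carry 31 protein numbers, of which 8 belong to a single gene and 23 to more than 1, with 3 genes for Rps4. Comparing genes for the same protein gave 25 pairs, whose coding sequences were at least 80.1% identical, with a median of 88.2%. The median absolute difference within a pair was 0.19 in asynchronous cells and 0.18 in S phase, against 0.15 and 0.25 for the 1460 pairs of members that encode different proteins. Paralogues were therefore about as unlike each other in Upf1 as other members were. For Pol II the medians were 0.26 within pairs and 0.30 between other members. A difference above 0.35 was seen in 4 pairs in asynchronous cells and in 6 in S phase. Of the 55 members, 18 have a copy that is at least 90% identical over at least 80% of the sequence, and probes in the shared stretches can hybridise DNA of both genes.

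The gene with the higher Pol II ratio also had the higher Upf1 ratio in 16 of 25 pairs in asynchronous cells and in 18 of 25 in S phase. The same gene was the higher one in both cultures in 13 pairs, close to an even split of the 25. Only 4 pairs in asynchronous cells and 6 in S phase differed in Upf1 by more than the spread of a difference. Most pairs in these Upf1 counts are therefore not ordered by the arrays. The genes for Rps4 also enter several pairs, so the pairs are not all separate. The gene with the higher Pol II ratio had the higher RNA level in 14 pairs.

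The pair for Rps22, a body protein, differed most in S phase, in Pol II and in the mean over both cultures, but not in asynchronous cells alone. rps2201 had the lowest Pol II ratio of the family (0.77) and rps2202 the highest (2.28). For Upf1, rps2201 was at 0.042 in asynchronous cells and −0.0040 in S phase, and rps2202 at 0.35 and 1.07. The higher Upf1 value thus lay with the gene of higher Pol II in both cultures, by 0.31 and by 1.07, of which only the S-phase difference exceeds 0.35. RNA ran the other way, with 6.45 at rps2201 and 5.82 at rps2202. The coding sequences of this pair are 92.4% identical.

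The pair for Rps18 differed in asynchronous cells alone. rps1801 was at 0.42 and rps1802 at 1.25 there, and in S phase they were at 0.29 and 0.37. Their Pol II ratios were close, at 1.37 and 1.54, and their coding sequences are 93.5% identical. The pair for Rps30 changed order between cultures. rps3001 was at 0.85 and rps3002 at 0.58 in asynchronous cells, and at 0.37 and 0.95 in S phase, with Pol II ratios of 1.61 and 1.75.

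Of the 3 genes for Rps4, a protein of the body, rps402 was at 0.67 and 0.59 in asynchronous cells and S phase, rps401 at 0.33 and 0.76, and rps403 at 0.20 and 0.25. The gene with the lowest Pol II ratio of the 3, rps402 at 1.01, had the highest Upf1 value in asynchronous cells. Its Upf1 lead over rps401 there was 0.34, below 0.35, and its Pol II ratio was 0.27 below that of rps403. For Rps28, which lies near the mRNA exit, rps2801 was at 0.40 and 0.52 and rps2802 at 0.60 and 1.04. Among the pairs that differed least were those for Rps0, Rps14 and Rps16, the last of which reaches the tRNA in the P site. rps001 and rps002 differed by 0.0012 in asynchronous cells and by 0.014 in S phase, although they are among the least alike in coding sequence (80.2% identical).

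**Figure D3:**
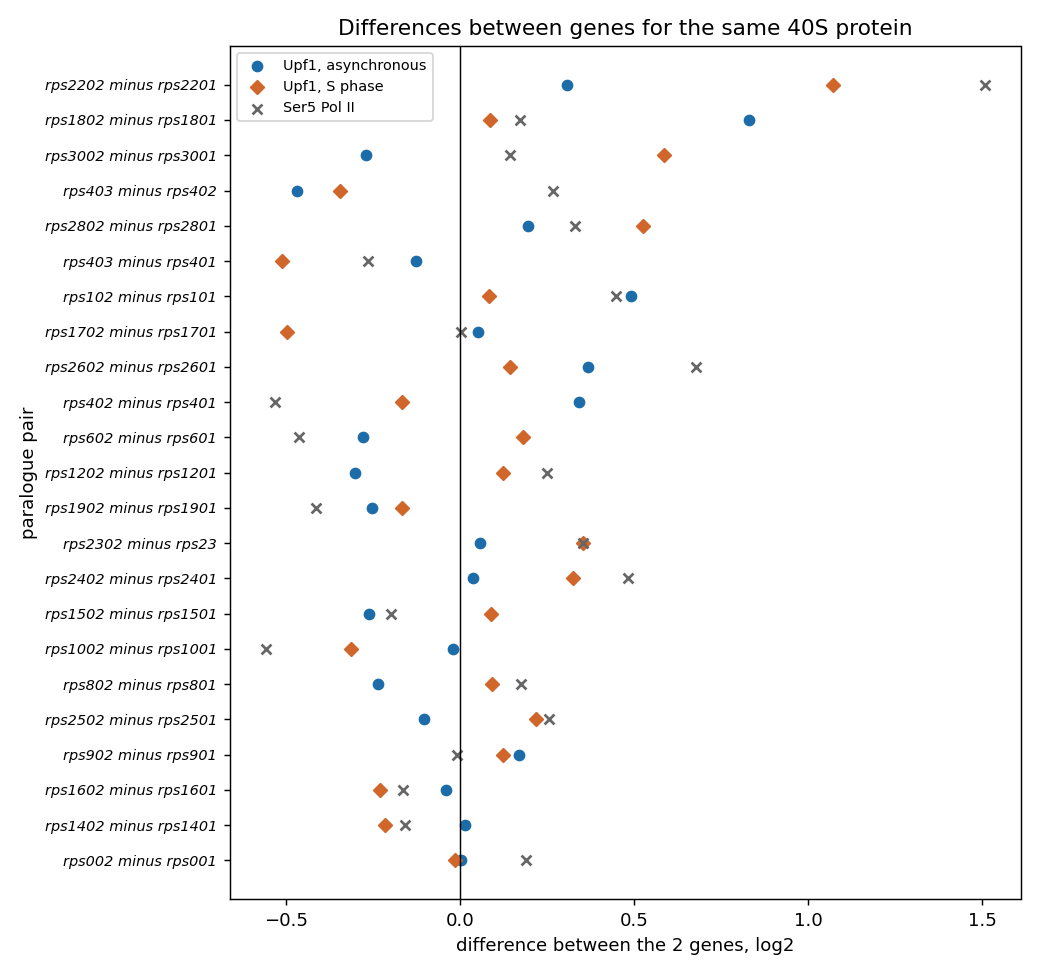
Difference between genes for the same 40S protein in 23 of the 25 pairs, as log2 of the second gene minus the first, for Upf1 in asynchronous cells (circles), Upf1 in S phase (diamonds) and Ser5 Pol II (crosses), with pairs sorted by how far they differ in Upf1. The pair rps2202 and rps2201 reaches 1.07 for Upf1 in S phase and 1.51 for Pol II, whereas the pair for Rps18 reaches 0.83 in asynchronous cells alone.

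Genes that alone encode their protein had higher Upf1 medians than genes with a paralogue, a split that was chosen after the values were seen and is given as a description with no error. The 8 genes are rps2, rps3, rps7, rps13, rps20, rps21, rps27 and rps29. Among them rps2 lies directly beside rps20, and rps27 directly beside rps29, so the 8 are not all separate places in the genome. The Upf1 median of the 8 was 0.68 in asynchronous cells and 1.12 in S phase, against 0.47 and 0.59 for the other 47. Their lowest value was 0.58 in asynchronous cells and 0.68 in S phase, both at rps27, and the ranges of both sets overlap in both cultures. In asynchronous cells 7 of the 8 and 10 of the 47 were enriched, and in S phase 8 of the 8 and 27 of the 47. In S phase 5 of the 6 highest members were single genes, the exception being rps2202, and the same 5 were among the 10 highest, beside 5 paralogues. All 8 had a change between cultures above 0, against 30 of the 47, but with the S-phase ratios scaled to the asynchronous spread these counts were 5 of 8 and 20 of 47.

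The single genes also had a higher Pol II ratio, with a median of 1.80 against 1.37. Relative to the running median in Pol II their Upf1 medians were 0.13 and 0.32, against −0.020 and −0.15 for the others. Summed over all genes for a protein, the Pol II ratio was lower for single genes, with a median of 3.49 times the median gene against 5.53 times for proteins with more than 1 gene. The summed FPKM had medians of 1904 and 1836. Single genes have no close copy to share probes with, and the part of this in the difference was not tested. Without the 18 members that have a near-identical copy, the family medians were 0.52 and 0.65.

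**Figure D4:**
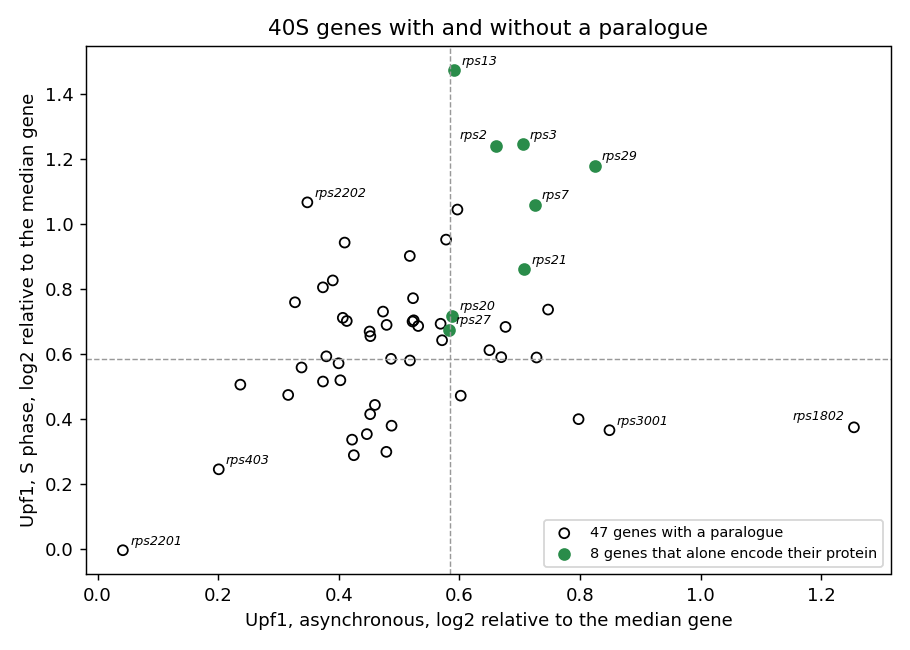
Upf1 in S phase against Upf1 in asynchronous cells for each member, both as log2 relative to the median gene, with the 8 genes that alone encode their protein filled and the 47 with a paralogue open. Dashed lines mark 1.5-fold. Beyond both lines lie 7 of the 8 single genes, beside some paralogues, and rps27 lies just left of the vertical line. rps1802 stands apart to the right at 1.25 and 0.37.

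By place in the subunit, the 23 genes for head proteins had medians of 0.47 and 0.58, and the 32 for body and platform proteins 0.52 and 0.68. Genes with an intron had 0.49 and 0.68, and genes without had 0.52 and 0.63. No error can be given for differences between these medians. The 28 members on chromosome I had medians of 0.45 and 0.59, the 20 on chromosome II 0.51 and 0.69, and the 7 on chromosome III 0.60 and 0.68. An annotated gene on either strand overlaps 40 of the members, and a coding gene overlaps 15. DNA fragments from a shared stretch count for both genes. The 99 genes directly beside members and outside the ribosomal protein lists were at the level of the whole table, with medians of 0.0066 and −0.026, and 0 and 2 of them were enriched. Their Pol II median was 0.17.

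Most members share short upstream sequence motifs. Ribosomal protein genes of fission yeast often lack a TATA box and carry a HomolD box in its place, alone or with an upstream HomolE box. The letters CAGTCACA (HomolD) and CCCTACCC (the core of HomolE) were searched on both strands in the 250 bases before the annotated start of each gene. Matches of these motifs can share at most an end base. HomolD was found at 34 of the 55 members (61.8%), and at 2.62% of the 5113 coding genes of the annotation. Its nearest match began between 43 and 75 bases upstream, with a median of 52. The HomolE core was found at 23 members (41.8%) and at 1.55% of coding genes, between 59 and 90 bases upstream, with a median of 69. Both were found at 11 members, HomolD alone at 23, the HomolE core alone at 12 and neither at 9. With any base allowed at the last place of HomolD (CAGTCACN, a form chosen after the matches were seen), 50 members (90.9%) had a match, against 4.52% of coding genes.

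Printed here are the 80 bases before the gene start for both paralogue pairs with the largest single difference, rps2202 with rps2201 and rps1802 with rps1801, and for 2 genes high in S phase, rps2 and rps29. They were chosen after the values were seen. All are written 5′ to 3′ in the direction of the gene, from RefSeq assembly ASM294v3, with matches to HomolD or the HomolE core on either strand in capitals. The positions, on that assembly, are chrI:1512391-1512470 on the minus strand for rps2202, chrI:1162659-1162738 on the minus strand for rps2201, chrIII:1033482-1033561 on the minus strand for rps1802, chrII:3620464-3620543 on the minus strand for rps1801, chrIII:2096037-2096116 on the minus strand for rps2, and chrII:516348-516427 on the plus strand for rps29. No coding gene other than the member itself is annotated across any of these windows, and a non-coding RNA gene is annotated across all but that of rps1801.
rps2202: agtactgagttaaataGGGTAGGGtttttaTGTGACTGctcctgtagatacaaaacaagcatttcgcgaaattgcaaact
rps2201: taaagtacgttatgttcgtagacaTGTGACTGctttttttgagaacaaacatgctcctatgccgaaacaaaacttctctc
rps1802: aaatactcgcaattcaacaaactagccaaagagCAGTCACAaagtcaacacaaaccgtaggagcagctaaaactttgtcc
rps1801: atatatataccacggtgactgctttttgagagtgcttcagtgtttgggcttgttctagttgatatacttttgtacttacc
rps2: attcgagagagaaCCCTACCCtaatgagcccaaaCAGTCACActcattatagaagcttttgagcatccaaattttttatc
rps29: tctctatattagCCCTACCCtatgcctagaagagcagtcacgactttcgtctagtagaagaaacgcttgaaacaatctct

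In the pair for Rps22, rps2202 holds both motifs in this window and rps2201 HomolD alone. In the pair for Rps18, rps1802 holds HomolD and rps1801 neither exact form. Over the family, members with HomolD had medians of 0.52 in asynchronous cells and 0.66 in S phase, against 0.45 and 0.69 without, and members with the HomolE core had 0.52 and 0.71, against 0.48 and 0.60 without.

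**Figure D5:**
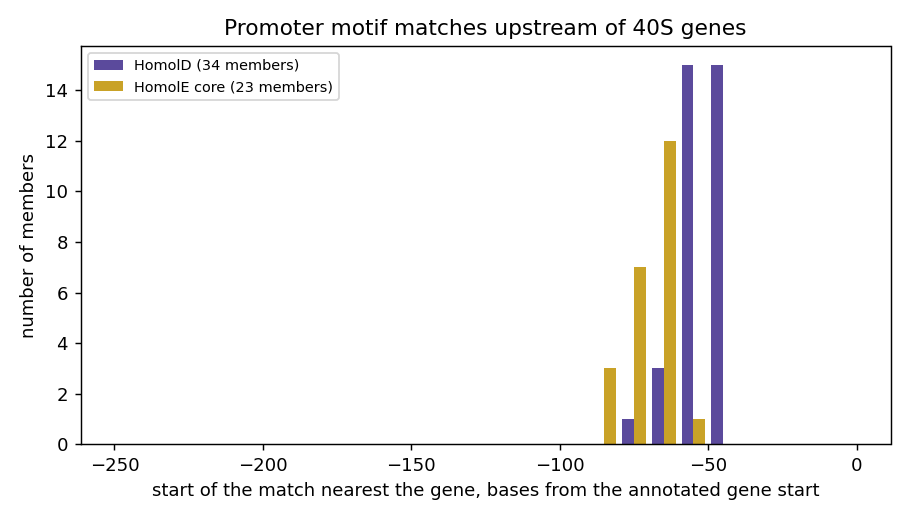
Number of members by the distance in bases from the gene start to the nearest upstream match of HomolD (34 members) and of the HomolE core (23 members), in bins of 10 bases. HomolD matches lie between 43 and 75 bases upstream and HomolE core matches between 59 and 90.

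The proteins of the large (60S) subunit served as the closest comparison. The list of 84 genes with symbols of rpl or rpp followed by digits had Upf1 medians of 0.53 in asynchronous cells and 0.67 in S phase, and the 40S medians minus these were −0.044 and −0.0041. Of these, 32 and 53 were enriched, or 38.1% and 63.1%. Their Pol II median was 1.49, and their medians relative to the running median in Pol II were 0.028 and −0.094. By its symbols this list takes in rpp1, rpp21 and rpp40, which encode proteins of RNase P, and without them the Upf1 medians were 0.53 and 0.68. HomolD was found at 61.9% of the list and the HomolE core at 29.8%.

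Genes that act with the 40S subunit without being part of it were lower. The 44 genes for assembly of the small subunit had medians of 0.040 and 0.10, and none was enriched in either culture. Their Pol II median was 0.35 and 11 of them were at least 1.5-fold above the median gene for Pol II. The 27 genes for translation initiation factors had medians of 0.13 and 0.36, with 3 and 7 enriched, and a Pol II median of 0.76. Relative to the running median in Pol II the medians were −0.075 and −0.088 for assembly and −0.093 and −0.071 for initiation.

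Further 40S proteins are encoded by genes with other symbols. cpc2, which encodes the RACK1 scaffold protein on the head, was at 0.53 in asynchronous cells and 1.00 in S phase, and its Pol II ratio was 1.89. ubi3 and ubi5 encode ubiquitin fused to a 40S protein. ubi3 was at 0.40 and 0.11, and ubi5 at 0.39 and −0.33, with Pol II ratios of 1.75 and 1.38. The change between cultures of ubi5, −0.73, was at least 1.5-fold and in the same direction as that of rps1802. Both ubiquitin fusion genes share their ubiquitin sequence with other genes, to which probes there can also hybridise.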

How the data were processed

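The deposited table holds, per gene, 2 Upf1 columns and a Ser5 Pol II column as linear ratios of IP over input, and an RNA column. Per the methods, the authors summarised probe intensities to a signal per gene and array with the Affymetrix statistical algorithm, brought both input arrays to the same median, took their mean and divided each IP signal by it. The Pol II ratio was made by the authors likewise, from published arrays that had inputs of their own. The RNA column is deposited as a natural log of FPKM + 1 from published RNA-seq; that base was settled from the values, as FPKM times length in kb summed to 917640 with the natural base and to 177503 with base 2. The genome build of the gene signals is not given in the sources used here. All columns were mapped to a sample or named as the authors' pooled values.

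Identifiers were matched to RefSeq assembly ASM294v3 (4844 of 4888, 99.1%) for names, length, GC content, introns, overlaps, neighbours and upstream sequence. Ratios were converted to log2 and centred on the median gene. Running medians spanned 201 genes in Pol II and 501 in GC content. Near-identical copies were found with blastn 2.17.0, and the rest used Python 3.11.15, pandas 2.3.3, NumPy 2.4.6, SciPy 1.17.1 and matplotlib 3.10.9. The scripts were tested on simulated data. Precision is limited by the number of arrays.

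The members and lists were chosen with earlier results of these data known. Genes were named by a rule: the 5 highest and 5 lowest in each culture, the 4 highest and 4 lowest in the change between cultures, the 4 furthest on each side of the Pol II trend in each culture, the 5 paralogue groups that differed most and the 5 that differed least, the extremes of Pol II and RNA, and those beside the threshold. Some members are counted in the family values but not reported singly here. Genes of other 40S proteins and genes that alone encode a protein were named in addition.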

Additional observations from a re-analysis of the deposited data

Results flagged for a closer look

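rps2201 was the only member whose Upf1 ratio was above the median gene in one culture and below it in the other, at 0.042 in asynchronous cells and −0.0040 in S phase. Each value rests on 1 array, the difference between cultures was not tested, and both values lie within the array spread of 0.24 of the median gene.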

How the results depend on the processing

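No paired analysis was possible because each culture has 1 IP array and the labels give the arrays no shared replicate numbers. With ratios as deposited, the S-phase ratio of every member lay below 1, the highest being 0.541 at rps13. Values counted as enriched or higher in S phase therefore took the other sign there. No other alternative turned a value that had been counted as enriched or changed to the other sign. Of the comparisons of a family value with an alternative, 66 stayed within tolerance (0.1 for rho, 1.5-fold for counts, and the array spread for log2 values). Some of these could not move. Asynchronous values do not depend on the S-phase scaling, and values relative to the Pol II trend do not depend on the zero point. The remaining 28 are these, and no share of all genes is given beside the counts at these settings. With the S-phase ratios scaled to the asynchronous spread, 12 members were enriched in S phase, 0 were higher in S phase and 2 lower. With the 25% of genes lowest in Pol II as the zero point, the S-phase median was 0.93, the Pol II median 2.05, 44 members were enriched in asynchronous cells and 5 were higher in S phase. With the GC trend removed, the S-phase median was 0.18, the Pol II median 0.92, and 6 and 10 members were enriched in asynchronous cells and S phase. At 2-fold, 1 and 7 members were enriched, 0 were higher and 0 lower in S phase. With ratios as deposited, 1 and 0 members were enriched. Without members that overlap another gene, 4 and 9 of the 15 left were enriched and rho with RNA in asynchronous cells was 0.068. Without members that have a near-identical copy, 23 of 37 were enriched in S phase, rho with Pol II was 0.47 in asynchronous cells and rho with RNA 0.27 in S phase. Without the shortest members, 5 and 11 of the 14 left were enriched, and in S phase rho was −0.029 with Pol II and −0.037 with RNA. Without rps1802, 0 members were lower in S phase. The last setting, the RNase P genes, the removal of rps2201 and rps2202, the Pol II trend centred on genes low in Pol II and that over genes outside the ribosomal protein lists were chosen after seeing the data. For named genes, 102 values moved by more than the array spread and 213 did not. These counts are partly fixed by the settings. Scaling the S-phase ratios cannot move an asynchronous value. A new zero point moves all values of a column by the same amount, and there 35 values moved and 70 did not. The cause of these shifts was not tested, beyond fewer members where some were left out. The percentile of the family's RNA median was planned and not run.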
